A study of Caenorhabditis elegans with 2 samples.

Results

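The genes described here encode 9 proteins that place methyl groups on histone H3 in the germ line of Caenorhabditis elegans, or that belong to a complex that does. They were taken by name, as 9 of the 19973 protein-coding nuclear genes of the WBcel235 annotation, and the question is whether the E2F-family transcription factor EFL-1 was found at their promoters. The members are mes-2, mes-3 and mes-6 (histone H3 lysine 27), mes-4 and met-1 (lysine 36), met-2 and set-25 (lysine 9), and set-2 and set-17 (lysine 4). Of these, 5 had an EFL-1 peak at the promoter and 4 had none. Across all protein-coding genes, 2187 (10.9%) had one.

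EFL-1 was mapped by chromatin immunoprecipitation and sequencing in whole young adult hermaphrodites of the transgenic strain YL478, whose EFL-1 carries GFP-FLAG at the C terminus. The antibody was described as directed against GFP, although another label names efl-1, and the sequence that drives the fusion gene is not stated. There was 1 group with 2 biological replicates, no untagged or mutant group was analysed here, and the labels give the age as unknown. Because whole animals were used, strong binding in few cells and weak binding in many cells cannot be told apart.

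E2F proteins bind DNA together with a DP partner, and they act as activators or, with proteins of the Rb family, as repressors of cell cycle genes. In the worm, EFL-1 and its partner DPL-1 are known for roles in oogenesis and early embryos. The histone methyltransferases of the germ line write marks that keep chromatin states through cell division. MES-2, MES-3 and MES-6 form the worm version of Polycomb repressive complex 2. The mes genes take their name from the maternal-effect sterile phenotype of their mutants.

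Below, a promoter peak is a peak of the authors' optimal list whose summit lies within 500 bp of an annotated start site of the gene. The optimal list holds 2802 nuclear peaks, with signal values from 40.1 to 2554 and a median of 78.4. The signal value is the authors' own strength score for a region, on a scale that the sources used here do not state, so it is used for order and for values side by side. Rank 1 is the strongest. Trans-splicing is common in the worm, and an annotated start can then lie downstream of where transcription begins. Coordinates are on build ce11, counted from 1.

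The promoter peaks of mes-2, mes-6, set-2 and set-17 are shown first, so that the sequence matches described further on can be seen in place. The met-1 sequence is not shown. The sequences are those within 100 bp of the summit, written along the strand of each gene. The mes-6 sequence stops at the last base before the start site, since the bases after it are annotated as untranslated. The overlapping core copies across that start site, described further on, are therefore not shown. The set-17 sequence runs past its start site. Capitals mark an E2F-like sequence, taken as TTCCCGC or else TTCGCGC or else TTGCCGC or else TTGGCGC on either strand, or the core CGCGC on either strand (GCGCG when read along the gene). The core lies within TTCGCGC and overlaps it. The sequences were read from the RefSeq copy of assembly WBcel235.
mes-2, chrII:14383742-14383942, plus strand: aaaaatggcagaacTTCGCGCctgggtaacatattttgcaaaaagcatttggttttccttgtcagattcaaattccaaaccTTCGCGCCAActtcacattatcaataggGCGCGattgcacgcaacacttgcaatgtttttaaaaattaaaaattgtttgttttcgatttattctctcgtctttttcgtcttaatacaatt
mes-6, chrIV:8511175-8511283, plus strand: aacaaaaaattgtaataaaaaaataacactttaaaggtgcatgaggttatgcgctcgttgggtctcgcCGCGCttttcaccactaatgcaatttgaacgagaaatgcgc
set-2, chrIII:4930340-4930540, minus strand: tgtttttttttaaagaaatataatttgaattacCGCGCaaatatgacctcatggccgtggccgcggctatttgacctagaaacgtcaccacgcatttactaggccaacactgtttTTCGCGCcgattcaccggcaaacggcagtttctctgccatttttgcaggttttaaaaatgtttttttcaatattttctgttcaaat
set-17, chrII:8940470-8940670, minus strand: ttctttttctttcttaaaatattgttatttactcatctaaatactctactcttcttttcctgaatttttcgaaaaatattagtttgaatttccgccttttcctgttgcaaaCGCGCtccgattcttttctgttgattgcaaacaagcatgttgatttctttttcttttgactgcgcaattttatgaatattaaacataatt
The mes-2 sequence holds TTCGCGC at 2 places, and the one nearer to the summit runs into TTGGCGC of the opposite strand. The set-2 sequence holds TTCGCGC once. The mes-6 and set-17 sequences hold the core but none of the E2F-like forms.

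The Polycomb genes did not behave alike: mes-2 and mes-6 had strong promoter peaks, and mes-3 had none. mes-2 (WBGene00003220) encodes the enzyme of the complex, the worm counterpart of Enhancer of zeste, and lies on chromosome II from 14383973 to 14388454 on the plus strand. Its peak ran from 14383712 to 14383972, in intergenic sequence that ends at the base before the start site, with the summit 131 bp upstream. The signal value was 353 and the rank 237. The overlapping region had 205 in replicate 1, at rank 217, and 157 in replicate 2, at rank 248. The value was thus higher in replicate 1, and the rank in each replicate was close to that in the optimal list.

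mes-6 (WBGene00003224) encodes the WD40-repeat subunit, the counterpart of EED, and lies on chromosome IV from 8511284 to 8513469 on the plus strand. Its peak ran from 8511157 to 8511387, and the summit was 9 bp upstream of the single annotated start site, in intergenic sequence. The signal value was 325, at rank 260. Replicate 1 had 172, at rank 273, and replicate 2 had 160.5, at rank 243. Downstream in the same gene the joint list had 3 further regions, none of them an optimal peak, and the strongest of these had a signal value of 32.4 at rank 3577.

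mes-3 (WBGene00003221, I, 4996835 to 5003202, plus strand) encodes the third core subunit. Neither of its 2 start sites had an optimal summit within 500 bp. The nearest optimal summit was 29172 bp away, in intergenic sequence. In the joint list, which holds 30000 regions with background included, the strongest region near a start site of mes-3 had its summit 423 bp upstream and a signal value of 9.72, at rank 21090. It had 6.88 in replicate 1. In replicate 2 the strongest region had another summit, 175 bp upstream, with 4.67. This was the lowest value of the 9 members in all 3 lists.

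**Figure D1:**
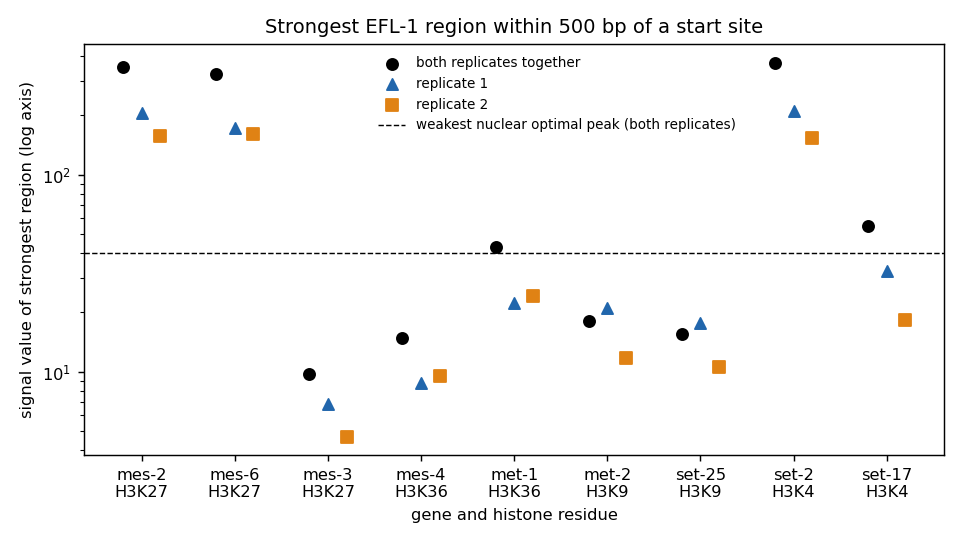
Signal value (log axis) of the strongest listed region within 500 bp of a start site of each gene, in the list called on both replicates together and in each replicate, with the dashed line at 40.1, the weakest nuclear optimal peak. mes-2, mes-6 and set-2 stand at 325 to 371 in the joint list, set-17 and met-1 lie just above the line, and mes-3, mes-4, met-2 and set-25 lie below it; the scales of the 3 lists may differ.

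Of the lysine 36 enzyme genes, mes-4 had no promoter peak and met-1 a weak one. mes-4 (WBGene00003222, V, 13433050 to 13437545, minus strand) encodes an NSD-type enzyme known for carrying the mark on germ line genes from parent to offspring. It had no optimal peak within 500 bp, and the nearest optimal summit was 28257 bp from its start site, in an intron of F53F1.3. The strongest region of the joint list had its summit 243 bp upstream, with 14.8 at rank 11385. In replicate 1 the strongest value was 8.79, 189 bp upstream, and in replicate 2 it was 9.46, 275 bp upstream. No region within the gene passed 17.4 in the joint list.

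met-1 (WBGene00016603, I, 4254197 to 4264699, plus strand) encodes the counterpart of yeast Set2, which methylates lysine 36 during transcription. Its only promoter peak, from 4254656 to 4254945, lay in an intron, 335 bp downstream of the third of 4 annotated start sites. The signal value was 42.8 and the rank 2629, close to the end of the optimal list. Replicate 1 had 22.2, at rank 3189, and replicate 2 had 24.1, at rank 2275. In replicate 1 alone the region thus fell outside the top 2802. A region below the optimal threshold had its summit 66 bp upstream of the first start site, inside an intron of the neighbour C43E11.12, with 25.6 at rank 4891. C43E11.12 lies 57 bp upstream on the same strand and had no promoter peak of its own.

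The lysine 9 enzymes had no promoter peak. met-2 (WBGene00019883, III, 8375300 to 8380848, plus strand) encodes the SETDB1-like enzyme of mono- and dimethylation. The strongest joint region near its start site had its summit 36 bp downstream, in coding sequence, with 17.98 at rank 8338. Replicate 1 had 20.96 at the same place, at rank 3432. In replicate 2 the strongest region was at another place, 168 bp upstream in the 3' untranslated exon of lmbr-1, with 11.73. The replicates thus placed their strongest signal on different sides of the start site. lmbr-1 lies 127 bp upstream on the same strand and had no promoter peak. The nearest optimal summit was 4897 bp from the start site of met-2.

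set-25 (WBGene00012802, III, 13283824 to 13293090, minus strand) encodes the enzyme of lysine 9 trimethylation, known for a role in placing silent chromatin at the nuclear periphery. Its strongest joint region had the summit 160 bp upstream, with 15.6 at rank 10481. Replicate 1 had 17.6 with the summit 247 bp upstream, and replicate 2 had 10.6 with the summit 51 bp downstream, in coding sequence. The nearest optimal summit was 3601 bp upstream and was the promoter peak of npp-18, a nuclear pore gene, at 74.8.

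The lysine 4 enzymes both had a promoter peak, of unequal strength. set-2 (WBGene00004782, III, 4922427 to 4930204, minus strand) encodes the catalytic subunit of the SET1 (COMPASS) complex, the main source of lysine 4 trimethylation. Its peak, from 4930314 to 4930573, was intergenic with the summit 236 bp upstream of the outermost start site. It had the highest signal value of the 9 members, 371, at rank 224. Replicate 1 had 212, at rank 213, and replicate 2 had 154, at rank 251. The peak lay between set-2 and the 3' end of C26E6.12, which lies 397 bp upstream on the same strand and had no promoter peak. The third start site, inside set-2, had a region 4 bp upstream that was below the threshold, with 19.6 at rank 7196, against 371 at the outer promoter.

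set-17 (WBGene00011887, II, 8939054 to 8940488, minus strand) encodes a PRDM9-like lysine 4 enzyme known for a role in fertility. Its promoter peak, from 8940425 to 8940714, had the summit 82 bp upstream with a signal value of 54.9, at rank 2043. Replicate 1 had 32.6, at rank 2031, and replicate 2 had 18.2, at rank 3227, outside the top 2802 there. The summit was also 324 bp upstream of T21B10.4, on the opposite strand, so the peak counted for both genes. A second region between the genes, 283 bp upstream of set-17, was just below the threshold with 34.4 at rank 3336.

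set-17 was the only member with a further optimal peak inside the gene. This peak, from 8938938 to 8939227, had its summit in the 3' untranslated exon, 29 bp from the end of the gene. Its signal value of 66.0, at rank 1662, was above that of the promoter peak. It had 44.97 in replicate 1 and 20.7 in replicate 2.

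**Figure D2:**
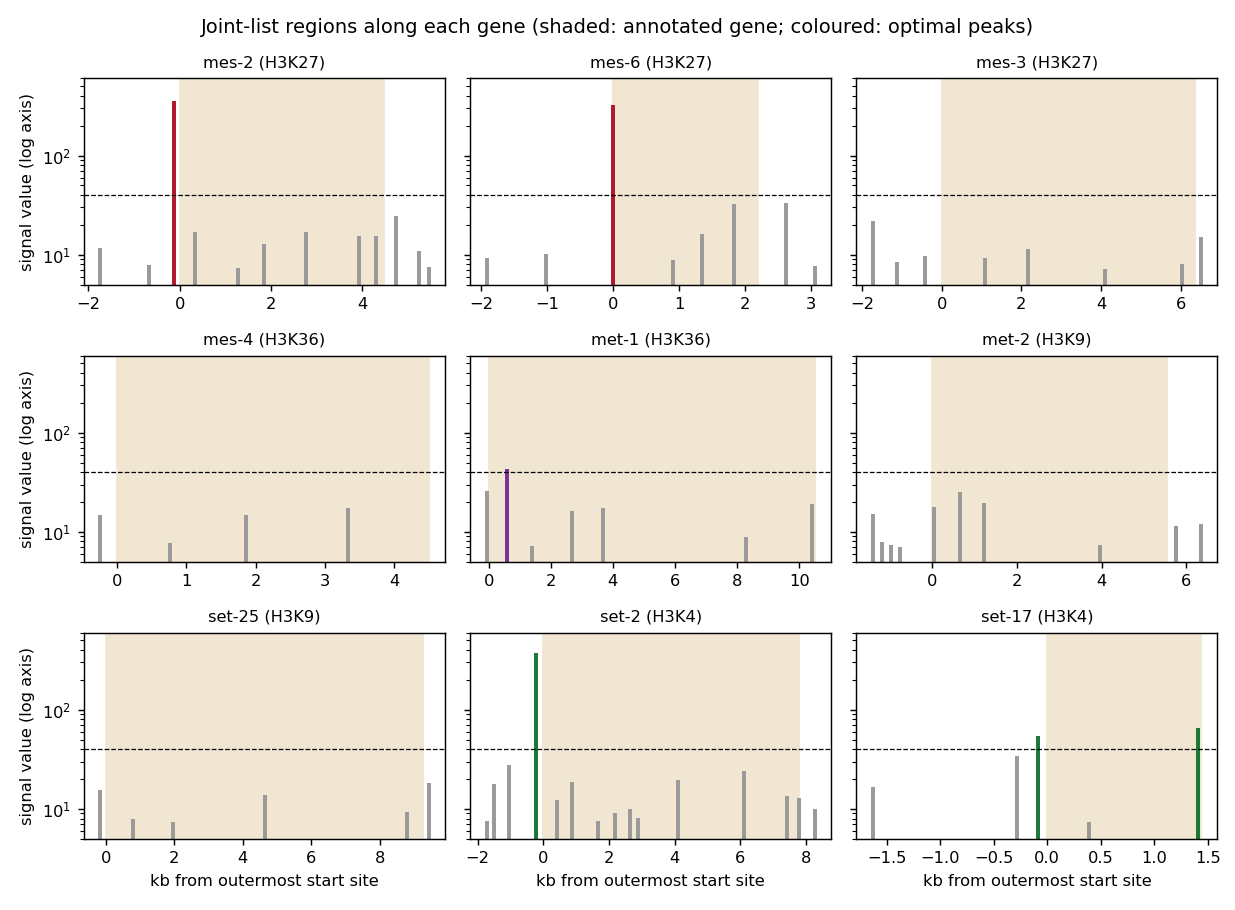
Summits of all joint-list regions from 2 kb before the outermost start site to 1 kb past the end of each gene (x axis, kb; shaded, the annotated gene), with the signal value on a log axis and the dashed line at 40.1. Coloured bars are optimal peaks: a single one at the start of mes-2, mes-6 and set-2, one inside met-1 and one at either end of set-17, while mes-3, mes-4, met-2 and set-25 have grey bars below the line.

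Among the 5 promoter peaks, those of mes-2, mes-6 and set-2 formed a strong group with near-equal values, from 325 to 371 in the optimal list, from 172 to 212 in replicate 1 and from 154 to 160.5 in replicate 2. The other 2, at set-17 and met-1, had 54.9 and 42.8. Only 258 of 19973 genes (1.29%) had a promoter signal at least as high as set-2, 271 (1.36%) as high as mes-2 and 302 (1.51%) as high as mes-6. For set-17 and met-1 the counts were 1738 (8.7%) and 2100 (10.5%). The ratio of replicate 1 to replicate 2 was 1.31 at mes-2, 1.07 at mes-6, 1.37 at set-2, 1.78 at set-17 and 0.924 at met-1. Over the 2765 nuclear optimal peaks with a region in both replicates the median ratio was 1.21, with 0.568 and 3.002 as the 5th and 95th percentiles. The ratios of all 5 members lay inside these percentiles. The lists were called separately, so the ratios are descriptive.

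**Figure D3:**
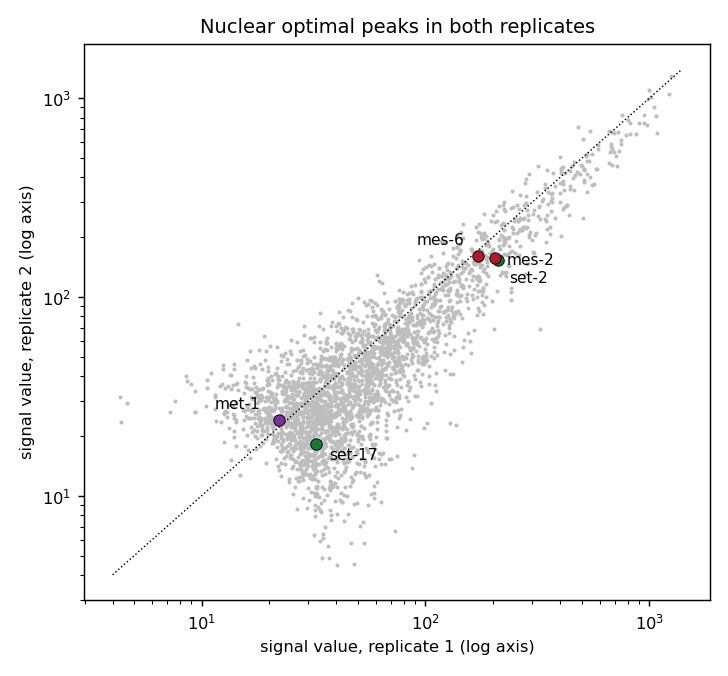
Signal value of the strongest overlapping region in replicate 1 (x, log axis) and replicate 2 (y, log axis) for the 2765 nuclear optimal peaks found in both, with the 5 member promoter peaks in colour and the dotted line at equality. mes-2, mes-6 and set-2 lie together in the upper part, at 172 to 212 and 154 to 160.5, and met-1 and set-17 lie in the dense lower part.

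The 4 members without a promoter peak were then set against other genes without one. A joint-list region within 500 bp of a start site was present for all 9 members, against 7091 of all genes (35.5%). Of the 17786 genes without a promoter peak, 4904 had such a region, with a median signal of 15.01 and quartiles of 10.4 and 22.7. met-2 at 17.98, set-25 at 15.6 and mes-4 at 14.8 lay between these quartiles, and mes-3 at 9.72 lay below the lower one. Among these 4904 genes, 38.7% had a higher value than met-2, 47.2% than set-25, 50.7% than mes-4 and 79.9% than mes-3. In the single replicates the placing of met-2 and set-25 was higher. Among genes without a promoter peak but with a region in the same list, the upper quartile was 14.48 in replicate 1 and 11.63 in replicate 2. met-2 was above both, at 20.96 with 8.25% of these genes higher and at 11.73 with 24.5% higher. set-25 was above it in replicate 1, at 17.58 with 14.8% higher, and below it in replicate 2, at 10.6 with 30.4% higher. mes-4 lay between the quartiles in both replicates. For mes-3, 70.9% of these genes were higher in replicate 1 and 89.7% in replicate 2. The joint list includes background, so a region in it is not a binding site by itself. In the joint list, met-1 at 42.8 was the weakest member inside the optimal threshold of 40.1, and met-2 at 17.98 was the strongest outside it.

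**Figure D4:**
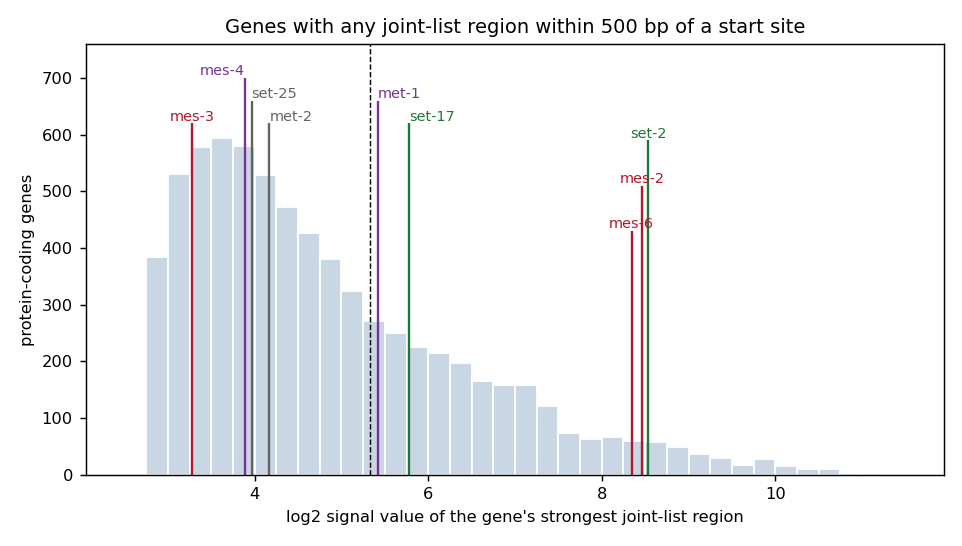
Number of protein-coding genes (y axis) by the log2 signal value of their strongest joint-list region within 500 bp of a start site (x axis, 7091 genes), with the members as coloured lines and the dashed line at the weakest nuclear optimal peak. mes-3, mes-4, set-25 and met-2 fall in the main body of the distribution, met-1 and set-17 just right of the dashed line, and mes-6, mes-2 and set-2 in the right tail.

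The sequences under the peaks were compared with those of all peaks. An E2F-like sequence lay within 100 bp of the summit in 2 of the 5 member peaks, mes-2 and set-2, against 832 of the 2802 nuclear optimal peaks (29.7%) and 50.6% of the 700 strongest. At mes-2 the matches were centred 83, 16 and 13 bp upstream of the summit, and at set-2 the match was 18 bp downstream of it. The core CGCGC, a sequence looked for only after the member sequences had been seen, lay within 100 bp of the summit in 4 of the 5, all but met-1. It was present in 1235 nuclear optimal peaks (44.1%) and in 65.4% of the 700 strongest. At mes-6 one copy was centred 30 bp upstream of the summit and 3 overlapping copies, on both strands, lay 7 to 9 bp downstream, across the start site. At set-17 the copy was 13 bp downstream of the summit.

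The CHR element, read here as TTTGAA or TTCGAA on either strand, is known in other animals as the contact of the DREAM complex at cell cycle genes. It lay within 100 bp of the summit in all 5 member peaks, against 1646 of the nuclear optimal peaks (58.7%) and 67.9% of the 700 strongest. At mes-6 it was 6.5 bp from the summit, at set-17 15.5 and 30.5 bp, and at mes-2 31.5 bp. At met-1 and set-2 every match was more than 50 bp away. The sequence is short and common in worm promoters: it was present in the 200 bp before the outermost start site of 11197 genes (56.1%).

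**Figure D5:**
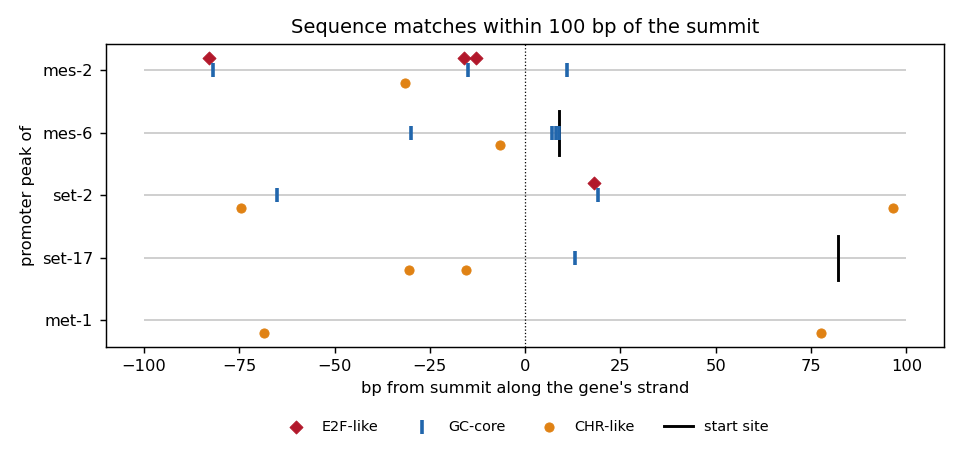
Positions of sequence matches within 100 bp of the summit of each member promoter peak (x axis, bp along the gene's strand, summit at 0), with the 4 E2F-like forms as diamonds, the GC-core of 5 bases as blue bars, the CHR-like forms as circles and a start site as a black bar where it lies in the window. mes-2 and set-2 have E2F-like matches, met-1 has neither these nor the core, and CHR-like matches are present at all 5.

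Of the 4 members without a promoter peak, mes-4 alone had an E2F-like sequence in the 200 bp before its start site. The 200 bases are shown for contrast with mes-2, with the same use of capitals.
mes-4, chrV:13437546-13437745, minus strand: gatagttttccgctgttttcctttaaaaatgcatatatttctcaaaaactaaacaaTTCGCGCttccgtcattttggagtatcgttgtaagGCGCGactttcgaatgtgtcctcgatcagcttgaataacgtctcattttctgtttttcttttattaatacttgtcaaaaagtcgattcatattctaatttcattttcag
TTCGCGC ran from 144 to 138 bp before the annotated start site of mes-4. At mes-2 the copy nearer to the annotated start ran from 150 to 144 bp before that start. Either annotated start may lie downstream of where transcription begins, so these distances may not share a reference point. The TTCGCGC and its distance from the annotated start were thus alike at the genes. Both had a further core copy on the opposite strand, at 122 to 118 bp in mes-2 and 109 to 105 bp in mes-4. A CHR-like match was also present at both, at 165 to 160 bp in mes-2 and 101 to 96 bp in mes-4. At mes-2 the TTCGCGC runs into TTGGCGC of the opposite strand, and at mes-4 it does not. In the 200 bp before the start site, the E2F-like matches of mes-2 were this TTCGCGC and the overlapping TTGGCGC, and mes-4 held 1. The further TTCGCGC of mes-2, centred 83 bp upstream of its summit, lies outside those 200 bp. The signal values were 14.8 at mes-4 and 353 at mes-2. Whether the surrounding sequence bears on this difference was not tested. At mes-4 the match was centred 102 bp from the summit of the strongest joint region. At mes-2 the TTCGCGC within the 200 bp was centred 16 bp from the summit. Across all genes, 1248 (6.25%) had an E2F-like sequence in these 200 bp. Of these, 382 (30.6%) had a promoter peak and 866 did not, as at mes-4. Of the 18725 genes without the sequence there, 1805 (9.64%) had a promoter peak. set-25 had the core CGCGC in its 200 bp, in a copy read on both strands, and no E2F-like form.

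Other genes of histone methylation were counted in the same way, beside the 10.9% of all genes. Of 30 genes listed as other histone lysine methyltransferase genes and found in the annotation, 6 (20%) had a promoter peak. The list is made of set-named genes with lin-59 and dot-1.1, and whether each product methylates histones was not checked. The strongest were set-16, the MLL-type lysine 4 enzyme gene (386), set-21 (373) and dot-1.1, of the DOT1 family (219.9), and set-1 and set-3 had none. The set-16 and set-21 peaks counted also for drr-2 and rpl-7A, respectively, those of ash-2, rbbp-5 and jmjd-1.2 below for Y17G7B.20, tpp-2 and F29B9.11, and those of cec-5 and mrg-1 for nol-10 and spcs-2. Values at set-16 were 186 in replicate 1 and 202 in replicate 2, close to those of mes-2, mes-6 and set-2. Of the 5 partner genes of SET-2 in COMPASS, 3 (60%) had a promoter peak, namely ash-2 (114.5), dpy-30 (47.4) and rbbp-5 (46.5), each weaker than set-2, and wdr-5.1 and cfp-1 had none.

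Histone lysine demethylase genes, whose products remove the marks, had a promoter peak in 1 of 13 cases (7.69%), at jmjd-1.2 (91.8, with the summit 492 bp upstream), and spr-5 and lsd-1 had none. Readers of histone methylation and their partners had one in 5 of 12 cases (41.7%). The strongest were lin-61, an MBT-repeat protein gene (326), cec-5, a chromodomain gene (182), and mrg-1, a chromodomain gene needed in the germ line (156.5). The heterochromatin protein genes hpl-1 and hpl-2 had none. Among genes with a promoter peak the median signal value was 325 for 5 members and 145 for 6 other methyltransferase genes. It was 47.4 for 3 COMPASS partners, 156.5 for 5 readers and 93.4 for the 2187 such genes of the annotation. The member median is the mes-6 value, and set-17 and met-1 were at 54.9 and 42.8. The lin-61 summit was 479 bp upstream of lin-61 and also counted for the spindle checkpoint gene bub-1. The X chromosome had few promoter peaks, at 32 of 2731 genes (1.17%), against 2155 of 17242 autosomal genes (12.5%). All 9 members are autosomal, while 7 of the 30 other methyltransferase genes and 5 of the 13 demethylase genes are on the X. Of the 12 readers and partners, 1, hpl-1, is on the X. None of these X-linked genes had a peak. On the autosomes alone the share was 26.1% for the other methyltransferase genes and 12.5% for the demethylase genes. For the readers and partners it was 45.5%.

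The genes whose promoter peaks had the most similar set of 3 signal values, in the optimal list and both replicates, were picked by the smallest sum of absolute log2 differences over those 3 values. For both mes-2 (sum 0.11) and set-2 (sum 0.035) this was nasp-1, at 365 with 212 in replicate 1 and 155 in replicate 2. For mes-6 it was citk-2 (sum 0.09; 337, 174.5 and 159), for set-17 F22E5.9 (sum 0.083; 54.4, 33.3 and 17.8) and for met-1 cam-1 (sum 0.079; 43.7, 21.7 and 23.8). This likeness is in strength over 2 samples only. Of the nearest same-strand genes upstream of the members, 5 lay more than 2 kb away. W03G9.10, 12071 bp upstream of mes-3, C28C12.1, 8302 bp upstream of mes-6, and cutl-15, 2179 bp upstream of set-17, had no promoter peak, and neither had sdz-26, 593 bp upstream of mes-2. For set-25 the nearest was klp-19, 9626 bp away, which had a promoter peak of 355, and for mes-4 it was F25H9.6, 29378 bp away, with 102.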

How the data were processed

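EFL-1 ChIP-seq was measured in whole worms in 1 group of 2 biological replicates. The deposited file descriptions state that regions were called on each replicate, or on both together, against a control alignment, and that the optimal list passed a threshold on the irreproducible discovery rate (IDR). No aligner, peak caller, IDR cutoff or scale of the values is named in the sources used here. The deposited signal value of each region was computed by the authors. Another deposited column, the offset of the summit from the region start, was added to the start. Analysis was on build ce11, with the WBcel235 genome and Ensembl release 115. No region passed a chromosome end. The 23 mitochondrial optimal peaks of 2825 were left out. The nuclear optimal peaks are the 2802 strongest nuclear regions of the joint list.

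Start sites are the 5' ends of the protein-coding transcripts of 19973 genes (29314 sites). A replicate's value is that of its strongest region overlapping the peak by at least 1 bp. Summits were assigned to genes with Python 3.11.15 and pandas 2.3.3, checked on simulated summits. No test was made: counts are set beside the share over all genes or peaks. Read depth is unknown, so no interval that needs it is given. The alternatives tried were windows of 200 and 1000 bp, stricter and looser lists, other start site rules, single replicates, other overlap rules and other sequence windows. The members and the gene lists were chosen with earlier results of these data known. The named genes are the members, genes sharing their peaks, the nearest same-strand genes upstream, the 3 strongest and the first 2 without a peak in each list, and the gene most similar in signal values. npp-18 and F53F1.3, which lie at the nearest optimal summits, and the genes sharing a peak with listed genes were named after their values were seen. Of the listed genes, 1, set-33, is not in the annotation.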

Additional observations from a re-analysis of the deposited data

How the results depend on the processing

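The count of members with a promoter peak was 5, with 10.9% of all genes called. It was 5 also with a window of 1000 bp (13.8% of all genes), with the 5604 strongest regions of the joint list (16.8%) and with each peak given only to its nearest start site (8.75%). It was 3 with a window of 200 bp (set-2 and met-1 lost, 5.92% of all genes called) and 3 with the 1401 strongest optimal peaks (set-17 and met-1 lost, 6.49%). With the outermost start site of each gene it was 4 (met-1 lost, 10.5%). The count was 4 without replicate 1 (set-17 lost, 10.5%) and 4 without replicate 2 (met-1 lost, 10.7%), from the 2802 strongest nuclear regions of the other replicate. mes-2 and mes-6 were called in each of these 8 alternatives, and mes-3, mes-4, met-2 and set-25 in none of them. The replicate values at the 5 peaks were identical under the other overlap rules tried. An E2F-like sequence was in 2 member peaks also within 50 bp of the summit (24.8% of nuclear optimal peaks) and in the whole region (30.3%). A CHR-like sequence was in 3 within 50 bp (37%) and in 5 in the whole region (64.4%). No paired analysis was possible because there is 1 group and no test between groups. Read depth is unknown, and 2 replicates give no error for a single value.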
